A study of Mus musculus with 9 samples.

Results

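Keratins grouped as those of other epithelia and appendages were measured in the epidermis of E18.5 mouse embryos. The mutants lacked 1 or both Epithelial splicing regulatory proteins, Esrp1 and Esrp2. The group covers keratins of the cornea, the oral and esophageal mucosa, the nail and hair, and simple epithelia. It also holds Krt23, which was abundant in wild-type epidermis. The 10 genes examined were Krt12, Krt13, Krt4, Krt23, Krt34, Krt75, Krt84, Krt8, Krt18 and Krt19, taken by symbol from a table of 38203 genes that held 50 keratin genes of the 2 keratin clusters. Each symbol occurred once in the table.

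The 4 genotypes were compared on a mixed C57BL6/129Sv background that had been back-crossed toward C57BL6. Wild-type (WT, n = 2) embryos had both genes, KO embryos (n = 3) were Esrp1 KO with Esrp2 intact, KH embryos (n = 2) were Esrp1 KO and heterozygous for Esrp2, and DKO embryos (n = 2) were KO for both. Both alleles were germline and present in every tissue. Zp3-Cre had removed exons 7 to 9 of Esrp1, and a LacZ and neomycin cassette replaced Esrp2. An epidermal difference could thus also arise in another tissue that uses these genes. All 9 libraries were polyA-selected, strand-specific RNA-seq libraries of full thickness epidermis freed from the dermis, and each library is treated as a separate embryo. In the crosses described, both parents of DKO embryos were Esrp2-null, so no WT embryo was a DKO littermate. Cross and genotype therefore cannot be told apart in DKO against WT. The labels call the control WT, while the description of the RNA extraction gives it as Esrp2-null. Esrp2 was at 118 and 136 FPKM (fragments per kilobase of transcript, scaled to library size) in the WT libraries, at 38.6 to 131 in the KH and KO libraries and at 0.0463 and 0.0843 in the DKO libraries, which goes with the labels. Esrp1 was at 119 and 142 FPKM for WT and at 18.2 to 55.1 in the 7 mutant libraries, where the remaining exons can still be counted.

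Keratins are the intermediate filament proteins of epithelial cells. A type I keratin, encoded on mouse chromosome 11 (with Krt18 next to the type II genes on chromosome 15), pairs with a type II keratin, encoded on chromosome 15, and the pair in use marks the kind of epithelium: Krt5 and Krt14 in basal keratinocytes, Krt1 and Krt10 in suprabasal epidermis, Krt4 and Krt13 in the lining of the mouth and esophagus, Krt8 and Krt18 in simple epithelia. Krt6a, Krt6b and Krt16 are barely used in resting interfollicular epidermis and are well known to rise after wounding.

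The libraries were read first for their tissue and for what set them apart. The 6 keratinocyte markers summed to 31739 to 75299 FPKM per library, and Krt5 lay between 1676 and 3896 FPKM in every library. Markers of endothelial cells (3 genes) and skeletal muscle (4 genes) summed to under 1 FPKM in each library. The 4 melanocyte markers summed to 40.0 and 44.0 FPKM for WT, 63.1 to 76.4 for KO, 53.2 and 141 for KH, and 89.8 and 196 for DKO. The 3 red blood cell markers in the table (of 5 listed) ranged from 5.92 to 559 FPKM, and the 6 dermal fibroblast markers from 44.2 to 150, mostly Dcn, with Col1a1 at 0.112 to 2.65 FPKM. The 4 immune markers summed to 2.76 to 35.1 FPKM, highest in KH replicate 2, and Cd207 was listed at 0 in all but DKO replicate 1. Xist was at 76.2 to 180 FPKM in the KO libraries and 111 for WT replicate 2, and under 0.2 FPKM in the others. The part of these differences in the keratin results was not tested.

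Of the 10 keratins, 6 were higher in both DKO libraries than in any of the 7 other libraries: the corneal keratin Krt12, the mucosal keratins Krt13 and Krt4, and the hair, nail and companion layer keratins Krt34, Krt84 and Krt75. Among all 16897 genes tested, 5.33% had both DKO libraries above the 7 others. Of the 6, Krt12, Krt84 and Krt75 passed the test between DKO and WT (limma on log2(FPKM + 1), Benjamini-Hochberg adjusted p under 0.05 over all tested genes and more than 2-fold in average FPKM). The share of all tested genes called was 0.728%, with 0.479% called higher and 0.249% called lower. No keratin of the 10 was called lower. The median difference of the 10, DKO minus WT, was 0.58 on the log2(FPKM + 1) scale, and that of all tested genes was 0.02. The 10 keratins were chosen with earlier results of these data known. Their counts and median beside those of all tested genes are therefore a description and not a test of the group. Krt4 and Krt75 averaged more than the 0.1 FPKM needed for testing in DKO and in no other genotype, so both entered the test only because they were high there. Without these, 4 keratins had both DKO libraries highest and 2, Krt12 and Krt84, were called. Because these are bulk samples, more cells that make a keratin cannot be told apart from more of its RNA per cell.

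**Figure D1:**
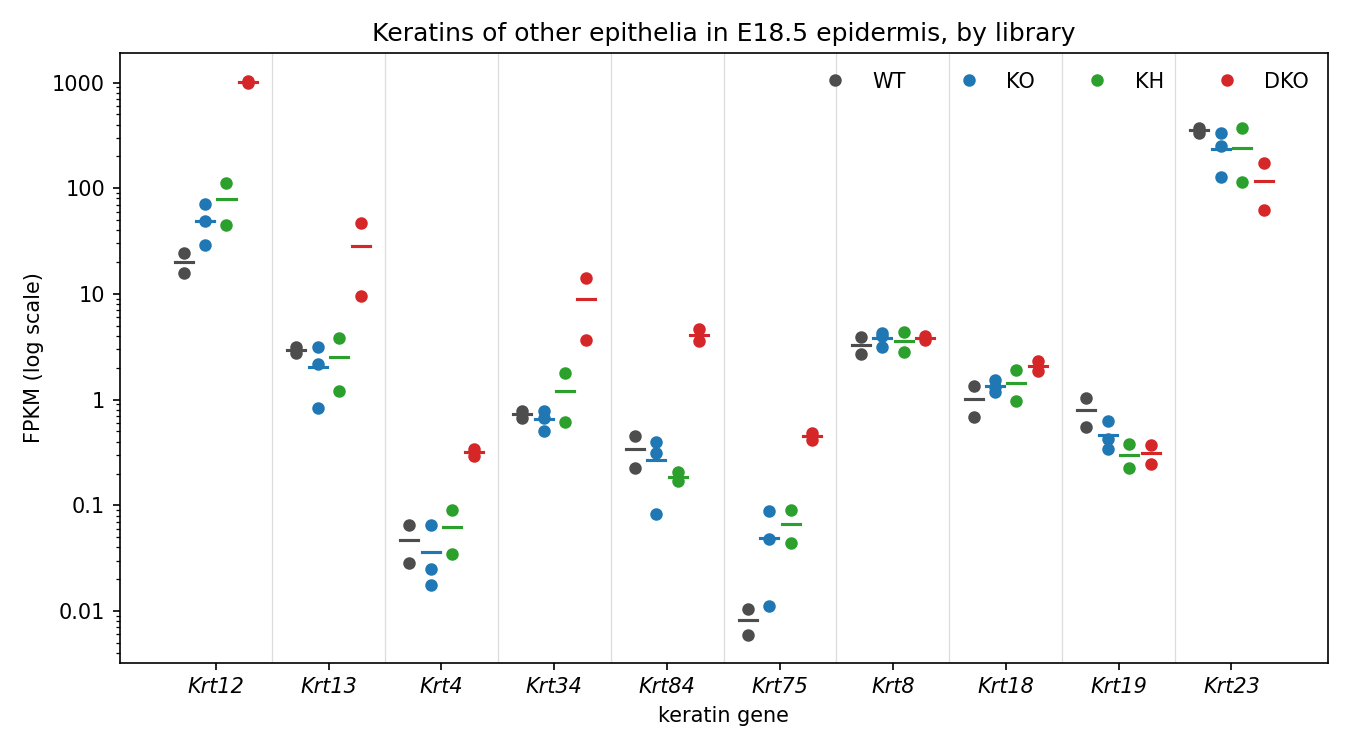
FPKM of the 10 keratins (log scale) in each of the 9 libraries, one point per library, coloured by genotype (WT n = 2, KO n = 3, KH n = 2, DKO n = 2), with short lines at the genotype means. Krt12, Krt13, Krt4, Krt34, Krt84 and Krt75 have both DKO points above the 7 other points, while the points of Krt8 overlap in all genotypes.

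Krt12 is the type I keratin of the corneal epithelium. It is listed (mm10) at chr11:99415665-99425497, ENSMUSG00000020912. This interval runs past the RefSeq start used below. Krt12 measured 24.5 and 15.8 FPKM in the WT libraries. The KO libraries had 28.8, 70.6 and 48.9 FPKM, the KH libraries 44.7 and 113, and the DKO libraries 994 and 1040. Every KO and KH library thus lay above both WT libraries, and every DKO library lay above all of these. In DKO it was 50.5-fold WT in average FPKM, with a log2 difference of 5.62 ± 0.49 (SE) and an adjusted p of 0.00133, a call that held in all 20 processing alternatives. In DKO it also rose over KO (20.6-fold, log2 difference 4.42 ± 0.45, adjusted p = 0.00256) and over KH (12.9-fold, 3.82 ± 0.49, adjusted p = 0.0133). The latter call was lost in 7 of 20 alternatives, among them 4 that left out DKO replicate 1, DKO replicate 2, KH replicate 1 or WT replicate 2. The call over KO was lost only without DKO replicate 1.

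As a share of the summed FPKM of all 50 keratins, Krt12 made up 0.0239% and 0.0479% in WT and 2.17% and 2.81% in DKO. It ranged from 0.0681% to 0.158% in KO and was 0.125% and 0.262% in KH. Without Krt12 the other 9 keratins made up 0.231% and 0.535% in DKO and 0.52% and 0.74% in WT, and most of this was Krt23. Without Krt12 and Krt23 the other 8 summed to 73.0 and 23.8 FPKM for DKO and 10.4 and 7.99 for WT. The table gives A830036E02Rik the same interval as Krt12, at 0.0995 to 1.59 FPKM per library. How the counting used strand is not given in the sources used here, so reads of these overlapping genes may not be fully separated.

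Neither single step from WT was called for Krt12. KO minus WT was 1.2 ± 0.45 (SE) on the log2 scale with an adjusted p of 0.853 (unadjusted p = 0.0275, from limma), and KH minus WT was 1.80 ± 0.49 with an adjusted p of 0.98 (unadjusted p = 0.00582). KH minus KO was 0.60 ± 0.45, and the 95% interval of -0.42 to 1.63 included no difference.

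The promoters of 5 of the 6 keratins chosen for having both DKO libraries highest are shown, so that their sequences can be read beside their levels. For the sixth, Krt4, none is shown. Each sequence is the 250 bases before the RefSeq transcription start (GRCm38.p6, the same assembly as mm10), 5' to 3' on the gene's strand. RefSeq promoters were found for 8 of the 10 keratins, with 2 start sites for Krt13. Capitals mark matches, on either strand, to the TATA box TATAAA and its variant TATAAG, the AP-1 motif TGANTCA, the KLF motif CACCC, the Grhl motif AACNGGTT and the E-box CACGTG (motifs may overlap).
Krt12, chr11:99422260-99422509, minus strand: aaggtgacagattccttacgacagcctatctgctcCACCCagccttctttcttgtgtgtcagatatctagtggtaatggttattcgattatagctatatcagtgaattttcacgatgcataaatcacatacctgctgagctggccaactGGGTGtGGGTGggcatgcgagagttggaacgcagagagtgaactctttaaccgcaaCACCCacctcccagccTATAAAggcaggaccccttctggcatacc
Krt84, chr15:101532821-101533070, minus strand: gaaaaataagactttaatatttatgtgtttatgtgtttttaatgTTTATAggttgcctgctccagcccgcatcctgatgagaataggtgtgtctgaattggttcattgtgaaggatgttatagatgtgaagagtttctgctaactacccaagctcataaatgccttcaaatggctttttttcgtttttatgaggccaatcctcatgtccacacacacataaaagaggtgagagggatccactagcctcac
Krt75, chr15:101573905-101574154, minus strand: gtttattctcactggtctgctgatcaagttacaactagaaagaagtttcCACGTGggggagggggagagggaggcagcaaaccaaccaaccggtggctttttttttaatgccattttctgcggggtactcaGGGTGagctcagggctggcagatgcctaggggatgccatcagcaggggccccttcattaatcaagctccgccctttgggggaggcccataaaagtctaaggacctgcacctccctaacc
Krt34, chr11:100041555-100041804, minus strand: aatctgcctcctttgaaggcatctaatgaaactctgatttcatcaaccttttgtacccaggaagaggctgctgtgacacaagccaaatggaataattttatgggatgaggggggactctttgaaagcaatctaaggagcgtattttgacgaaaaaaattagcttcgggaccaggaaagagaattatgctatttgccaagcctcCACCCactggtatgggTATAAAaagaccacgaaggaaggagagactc
Krt13, chr11:100121567-100121816, minus strand: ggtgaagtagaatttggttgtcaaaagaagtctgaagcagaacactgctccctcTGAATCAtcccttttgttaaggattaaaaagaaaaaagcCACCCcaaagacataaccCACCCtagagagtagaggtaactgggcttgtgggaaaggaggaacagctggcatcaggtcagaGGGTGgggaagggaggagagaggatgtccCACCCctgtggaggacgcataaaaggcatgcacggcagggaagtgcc
The window of Krt12 held a TATAAA from 29 to 24 bases before the start and 4 CACCC matches, and that of Krt34 held a TATAAA from 31 to 26 bases before the start and 1 CACCC match. Krt84 had its TATAAA match 206 to 201 bases before the start, on the opposite strand, and no CACCC. Krt13 had 1 TGANTCA and 4 CACCC matches before the start shown, and Krt75 had 1 CACGTG and 1 CACCC. Over 32851 promoter windows of the same length, 12.4% held TATAAA, 6.65% the variant TATAAG, 6.75% the AP-1 motif, 52% the KLF motif, 1.79% the Grhl motif and 6.02% the E-box. No motif was held by all 5 windows. Krt23, Krt8 and Krt18, whose levels did not separate DKO from the other libraries upward, had 0, 2 and 1 CACCC matches. A match is a description of letters in this window and not of a bound site.

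Krt84 is a type II keratin of the nail and hair, also found in the tongue. Its row spans chr15:101525025-101532820 (ENSMUSG00000044294). It measured 0.227 and 0.453 FPKM for WT, 0.0823, 0.401 and 0.316 for KO, 0.17 and 0.205 for KH, and 4.63 and 3.61 for DKO. The KO libraries overlapped those of WT and KH, both KH libraries lay below both WT libraries, and the DKO libraries lay above all of these. It rose in DKO 12.1-fold over WT in average FPKM (log2 difference 1.93 ± 0.17, SE; adjusted p = 0.00133), 15.5-fold over KO (2.02 ± 0.16, adjusted p = 0.000486) and 22-fold over KH (2.10 ± 0.17, adjusted p = 0.000806). All 3 calls held in each of 20 alternatives. A log2(FPKM + 1) difference understates the change of a gene this low. With a pseudocount of 0.1 the DKO minus WT difference of Krt84 was the largest of its alternatives, 3.30.

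The low FPKM values of Krt84, Krt75 and Krt4 are whole multiples of the value of 1 fragment (within 0.1, or 0.1% of larger counts), so the fragments behind them can be read back. The value of 1 fragment was 1 to 3.97 times that in KO replicate 3, the deepest library. Krt84 rested on 284 and 389 fragments in DKO, 17 and 59 for WT, 8, 28 and 77 for KO, and 18 and 14 for KH. The pooled ratio of DKO to WT was 10.7 (95% exact interval 8.46 to 13.8, counting error only).

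Krt75 is the type II keratin of the companion layer of the hair follicle and of the nail bed, at chr15:101563344-101573904 (ENSMUSG00000022986). It measured 0.0104 and 0.00595 FPKM for WT, 0.0877, 0.0111 and 0.0477 for KO, 0.0439 and 0.0906 for KH, and 0.481 and 0.417 for DKO. These were 1 and 1 fragments in WT, 11, 1 and 15 for KO, 6 and 8 for KH, and 38 and 58 for DKO. The pooled ratio of DKO to WT was 58.2, with a 95% exact interval of 15.7 to 487 that covers counting error only. It rose in DKO against WT (log2(FPKM + 1) difference 0.52 ± 0.079, SE, adjusted p = 0.0234) and against KO (0.47 ± 0.072, adjusted p = 0.0265). Against KH the difference of 0.44 ± 0.079 was not called (adjusted p = 0.0775).

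The Krt75 call was the least firm of the 3. Its call over KO was lost in 12 of 20 alternatives, among them the pseudocount of 0.1 and leaving out any 1 of the DKO, KO or WT libraries. The call was lost between DKO and WT in 9 of 20 alternatives, one of which removed it by a filter at 1 FPKM and 5 of which left out 1 library (either DKO, either WT, or KO replicate 2). Krt75 lies beside Krt6b and Krt6a, close relatives in sequence. Krt6b was at 710 and 1593 FPKM and Krt6a at 156 and 629 for DKO, against 6.87 and 12.2 and 5.45 and 4.57 for WT. Fragments assigned among these relatives may not be fully separated, and their part in the Krt75 values was not tested.

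Krt34 is a type I keratin of the hair shaft, at chr11:100037346-100041554 (ENSMUSG00000043485). It measured 0.669 and 0.785 FPKM for WT, 0.67, 0.501 and 0.781 for KO, and 0.615 and 1.80 for KH. In DKO it measured 14.2 and 3.65. Both DKO libraries were above the rest, but they differed from each other 3.91-fold. The log2 difference from WT of 2.29 ± 0.48 did not pass (12.3-fold in average FPKM, adjusted p = 0.0982). This difference was 1.43 without DKO replicate 1 and 3.14 without DKO replicate 2. It passed in 3 of 20 alternatives, one of them without DKO replicate 2. Krt34 has close relatives among the hair keratins beside it. Krt33b averaged 0.0139 FPKM and Krt31 0.123 in DKO, and how fragments were assigned among these genes was not tested.

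Krt13 and Krt4 form the type I and type II pair of internal stratified epithelia. Krt13 (chr11:100117326-100121566, ENSMUSG00000044041) measured 3.14 and 2.77 FPKM for WT, 0.832, 2.15 and 3.13 for KO, 1.21 and 3.85 for KH, and 47.1 and 9.46 for DKO. The DKO libraries differed from each other 4.98-fold, the widest gap among the 10 keratins. Its average was 9.58-fold WT, and the log2 difference of 2.51 ± 0.69 was not called (adjusted p = 0.177). It was 1.41 without DKO replicate 1 and 3.61 without DKO replicate 2, and it was called in 1 of 20 alternatives, with array weights (adjusted p = 0.0477). Over KO, Krt13 was called in 2 of 20, after rescaling to TPM and without DKO replicate 2.

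Krt4 (chr15:101918535-101924735, ENSMUSG00000059668) was far lower, at 0.0655 and 0.0282 FPKM for WT, 0.0252, 0.0175 and 0.0653 for KO, 0.0347 and 0.0893 for KH, and 0.339 and 0.296 for DKO. This corresponded to 4 and 3 fragments in WT, 2, 1 and 13 for KO, 3 and 5 for KH, and 17 and 26 for DKO, a pooled ratio of 7.44 between DKO and WT (95% exact interval 3.32 to 19.6, counting error only). The log2(FPKM + 1) difference of 0.33 ± 0.076 was not called (adjusted p = 0.121). The 2 partners were thus unequal in level, with Krt13 at 32.0 to 139 times the FPKM of Krt4 in the 9 libraries, and both ends of this range were DKO libraries.

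Of the 10, 2 keratins had both DKO libraries below both WT libraries, Krt23 and Krt19, against 26.4% of all tested genes. Krt23, a type I keratin (chr11:99477973-99493137, ENSMUSG00000006777), was the most abundant of the 10 for WT. The group name, keratins of other epithelia, thus does not describe Krt23 in this tissue. It measured 369 and 335 FPKM for WT, 127, 253 and 333 for KO, 114 and 369 for KH, and 172 and 61.6 for DKO. The KO, KH and DKO libraries overlapped one another. Its DKO average was 33.2% of WT, and the log2 difference of -1.76 ± 0.67 was not called (adjusted p = 0.304). The 2 KH libraries differed 3.25-fold and the 2 DKO libraries 2.79-fold, so the spread inside a genotype was near the difference between genotypes.

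Krt8, Krt18 and Krt19 are keratins of simple epithelia, and Krt8 and Krt18 are also made by Merkel cells of the skin. Krt8 (chr15:101996710-102004342, ENSMUSG00000049382) measured 3.91 and 2.72 FPKM for WT, 4.28, 3.99 and 3.17 for KO, 4.39 and 2.81 for KH, and 4.02 and 3.69 for DKO. All 4 genotypes overlapped. The DKO minus WT difference was 0.18 ± 0.26 with a 95% interval of -0.40 to 0.77 (adjusted p = 0.768), an interval that leaves room for a modest change in either direction.

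Krt18 (chr15:102028215-102032026, ENSMUSG00000023043) measured 1.33 and 0.679 FPKM for WT, 1.33, 1.54 and 1.17 for KO, 1.90 and 0.969 for KH, and 1.88 and 2.33 for DKO. Both DKO libraries were above both WT libraries, but DKO replicate 1 lay below KH replicate 1. The difference of 0.64 ± 0.24 was not called (2.09-fold, adjusted p = 0.294). The FPKM of Krt8 was 1.59 to 4.0 times that of its partner Krt18 in every library, lowest in DKO replicate 2 and highest in WT replicate 2. Of the 5 Merkel cell markers 4 were in the table, and they summed to 2.87 and 3.16 FPKM for WT, 2.40 to 2.70 for KO, 2.45 and 2.99 for KH, and 2.24 and 2.82 for DKO.

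Krt19 (chr11:100140809-100148665, ENSMUSG00000020911) ran the other way, with 1.03 and 0.547 FPKM for WT, 0.625, 0.342 and 0.422 for KO, 0.226 and 0.377 for KH, and 0.246 and 0.375 for DKO. The KH and DKO libraries lay below both WT libraries, and KO replicate 1 lay between the 2 WT libraries. DKO minus WT was -0.44 ± 0.16 (adjusted p = 0.283) and KH minus WT -0.45 ± 0.16 (adjusted p = 0.98), and neither was called.

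Ordered by level, WT epidermis had Krt23 highest at 352 FPKM ± 23.7 (SD, n = 2), then Krt12 at 20.1 ± 6.21, Krt8 at 3.31 ± 0.844 and Krt13 at 2.95 ± 0.258. Below these came Krt18, Krt19 and Krt34 at 1.00, 0.79 and 0.727 FPKM, Krt84 at 0.34, Krt4 at 0.0469 and Krt75 at 0.00816. The 2 libraries of Krt8 overlapped those of Krt13, and the libraries of Krt18, Krt19 and Krt34 overlapped one another, so these neighbours could not be ordered. In DKO, Krt12 stood first at 1017 ± 32.6, ahead of Krt23 at 117 ± 78.1 and Krt13 at 28.3 ± 26.6. Krt34 (8.95 ± 7.50), Krt84 (4.12 ± 0.722) and Krt8 (3.85 ± 0.237) followed. The libraries of Krt34 overlapped those of Krt13, Krt84 and Krt8, and those of Krt8 lay within the range of Krt84. Krt18 (2.10 ± 0.318), Krt75 (0.449 ± 0.0448), Krt4 (0.317 ± 0.0308) and Krt19 (0.311 ± 0.0917) came last, and the libraries of Krt4 lay within the range of Krt19.

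The single and partial losses were compared with WT to ask whether 2 or 1 remaining Esrp2 alleles left these keratins at WT levels. None of the 10 was called in KO or in KH by limma, against 0.0296% of all tested genes in each comparison. At an unadjusted p under 0.05 there were 1 keratin in KO (Krt12) and 2 for KH (Krt12 and Krt19), and 765 and 629 of all tested genes. The medians of the 10 log2 differences were -0.04 for KO and 0.05 for KH, and 0 over all genes in both. Krt12 had all 5 KO and KH libraries above both WT libraries, which held for 6.29% of all tested genes. The FPKM of Krt75 did too, but KO replicate 2 and both WT libraries each held 1 fragment of it, so these libraries do not differ in their fragments. No keratin had all 5 below both WT libraries (6.1% of all tested genes). The comparisons share the WT libraries, so they are given side by side and not as independent evidence.

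Within embryos that all lacked Esrp1, removing Esrp2 was compared directly. Xist, made in female cells, was at 76.2 to 180 FPKM in the KO libraries and at 0.0121 to 0.178 in the KH and DKO libraries. Embryo sex as read from Xist thus went with genotype wherever KO was compared with KH or DKO. There, sex and genotype cannot be told apart. Krt12, Krt84 and Krt75 were called higher in DKO than in KO, against 0.639% of all tested genes called in either direction. Without Krt75, which reached the filter only through DKO, the count was 2. Krt12 and Krt84 were called higher in DKO than in KH, 2 of 10 against 0.426%. Between KH and KO no keratin was called, as in the 0% of all tested genes, and at an unadjusted p under 0.05 there were 0 of the 10 and 185 of all genes. These limma comparisons also share libraries, including the DKO libraries.

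**Figure D2:**
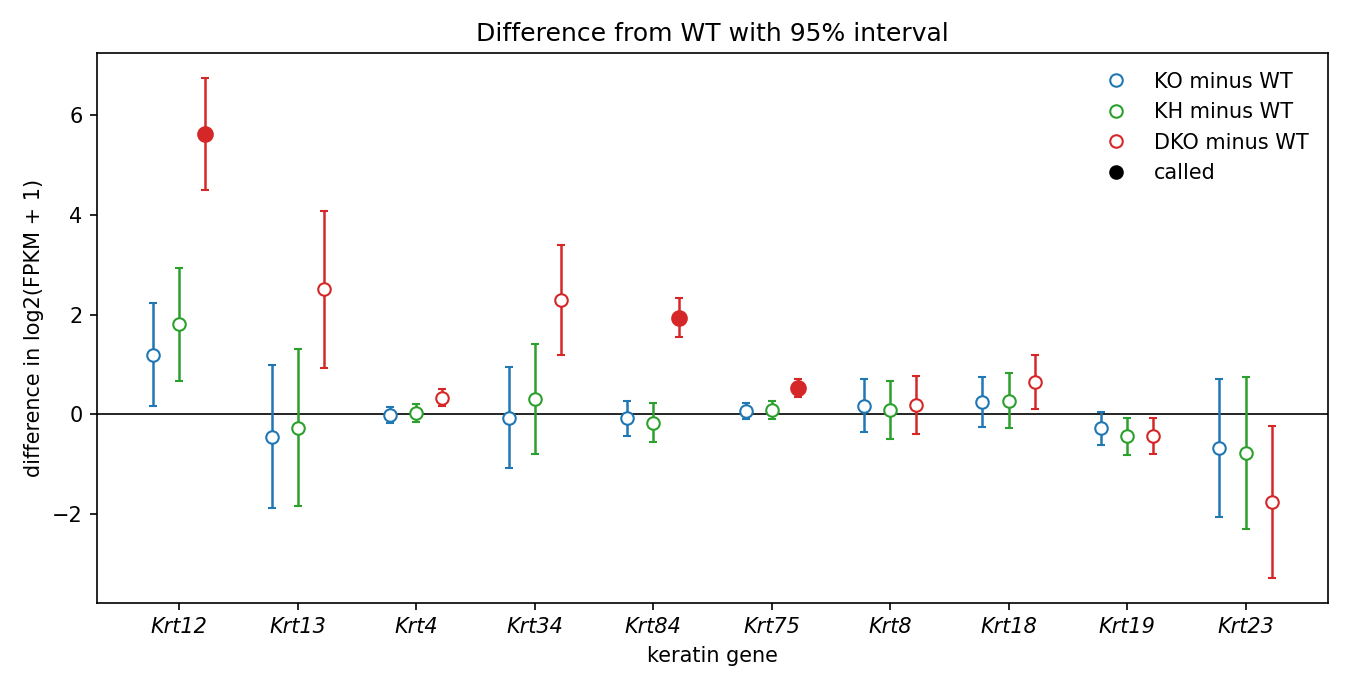
Differences from WT in log2(FPKM + 1) for the 10 keratins, for KO, KH and DKO, with 95% intervals from limma. Filled points were called, which applies to Krt12, Krt84 and Krt75 for DKO, and the intervals of Krt8 include 0 in all 3 genotypes.

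The other keratins of the 2 clusters were read beside these genes. Of the 40 remaining keratin genes, 31 were tested, 3 were called higher in DKO than in WT (Krt16, Krt6b and Krt6a) and 0 lower, with a median difference of 0.19. Over all tested genes 0.479% were called higher and 0.249% lower, with a median of 0.02. On chromosome 11, Krt12 lies between Krt10 and Krt20, whose differences were -1.02 ± 0.84 and -0.03 ± 0.16 and were not called. Krt34 lies between Krt33b, which was too low to test, and Krt31 (0.08 ± 0.094, not called). On chromosome 15 the 4 called keratins, Krt84, Krt75, Krt6b and Krt6a, lie next to one another with Krt82 between the first pair. Krt84 lies between Krt86, which was too low to test, and Krt82, which had 0.265 and 0.0582 FPKM for DKO and 0.067 and 0.125 for WT. Krt75 lies between Krt82 and Krt6b, and Krt6b had the largest difference of the keratins tested, 6.71 ± 0.38 (adjusted p = 8.55e-05).

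**Figure D3:**
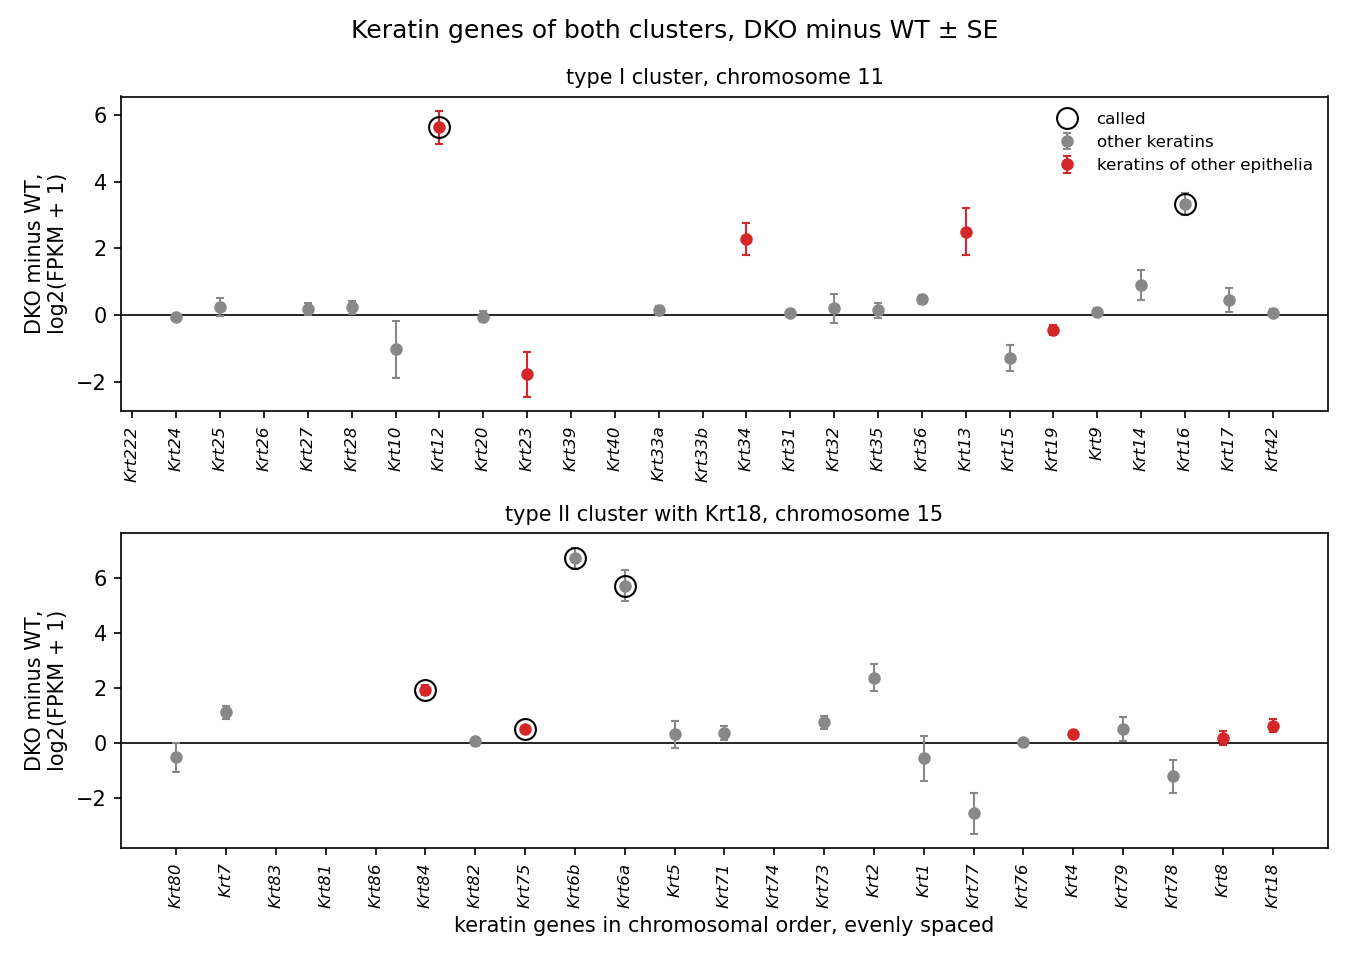
DKO minus WT difference in log2(FPKM + 1), with SE, for each tested keratin gene of the type I cluster (top) and of the type II cluster with Krt18 (bottom), in chromosomal order and evenly spaced. Red points are the 10 keratins described here, grey points the other keratins, and rings mark the 6 called genes, Krt12, Krt16, Krt84, Krt75, Krt6b and Krt6a.

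Genes of the epithelia that normally hold these keratins were counted from lists. Of 14 hair and nail keratins besides Krt34, Krt75 and Krt84, 12 were in the table, 6 were tested and none was called in DKO against WT by limma (median difference 0.15). Krt32, the most abundant of these, had 22.1 and 8.20 FPKM for DKO and 11.2 and 11.9 for WT. Krt36 was at 0.235 and 0.64 FPKM for DKO and 0.0214 and 0.0247 for WT (difference 0.48 ± 0.12, adjusted p = 0.155), and passed the filter only through DKO. Of 9 inner root sheath and sebaceous duct keratins 6 were tested and none was called (median 0.31). Of 11 regulators of the hair follicle, including Hoxc13, Foxn1 and Shh, none was called (median 0.32). The share called over all tested genes was 0.728%, with a median of 0.02. At that share, lists this short would mostly hold no call. Hoxc13, a transcription factor of hair and nail keratin genes, had 0.957 and 1.79 FPKM for DKO and 1.12 and 0.797 for WT.

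For the cornea, 4 genes were listed and 3 tested, and none was called (median 0.07). Over all tested genes 0.728% were called, with a median of 0.02. At that share, a list this short would mostly hold no call. Pax6, the transcription factor of eye and corneal identity, was too low to test, with 0.127 and 0.028 FPKM for WT and listed at 0 in both DKO libraries. Aldh3a1, an abundant corneal enzyme, had 0.101 and 0.0287 FPKM for DKO and 0.0206 and 0.0119 for WT. It was highest in KH, at 0.132 and 0.113 FPKM, and passed the filter only through KH. Slurp1, a secreted protein of cornea and skin, had 602 and 246 FPKM for DKO and 59.7 and 33.6 for WT, a difference of 3.07 ± 0.87 that was not called (adjusted p = 0.185).

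For internal stratified epithelia, 9 genes were listed and 6 tested, and 2 were called higher in DKO than in WT (median 0.08), beside 0.479% of all tested genes (median 0.02). Crnn, the cornulin gene of esophagus and upper epidermis, had 34.8 and 20.6 FPKM for DKO and 2.36 and 3.57 for WT (difference 2.83 ± 0.43, adjusted p = 0.0234). Pitx1, a transcription factor of hindlimb and oral epithelium, had 3.39 and 2.2 FPKM for DKO and 0.761 and 0.846 for WT (1.06 ± 0.18, adjusted p = 0.0415). Krt78, the most abundant gene of this list, had 146 and 68.3 FPKM for DKO and 227 and 233 for WT and was not called (-1.2 ± 0.59, adjusted p = 0.411). Sox2 and Sprr3 stayed under 1 FPKM in every library.

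Of 7 further genes of simple epithelia none was called in DKO against WT (median 0.14), and 1 was called higher in DKO than in KO, where 0.639% of all tested genes were called. This was Krt7, the type II keratin of ducts and glands, with 13.0 and 9.53 FPKM for DKO, 5.16 and 3.99 for WT, 3.21, 3.60 and 3.05 for KO, and 3.53 and 4.28 for KH. The DKO minus WT difference of Krt7 was 1.13 ± 0.23 (adjusted p = 0.0897). The 5 gland markers, of which Krt7 is one, summed to 11.8 and 17.0 FPKM for DKO and 7.09 and 8.80 for WT. Without Krt7 the other 4 summed to 4.06 and 2.23 FPKM for DKO and 3.64 and 3.10 for WT. Of 8 genes of the periderm, the transient outer layer of the embryonic epidermis, 1 was called, the stress keratin Krt6a, and the median difference was 0.14, beside 0.728% called and a median of 0.02 over all tested genes.

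The genes with the pattern most like each called keratin were found by Pearson's r of log2(FPKM + 1) over the 9 libraries, among 12197 genes that averaged at least 1 FPKM. These values describe likeness only, since the 2 DKO libraries set most of the range. For Krt12 the 5 were Il33 (r = 0.983), Il1b (0.976), Slc16a5 (0.969), Fam46b (0.963) and S100a9 (0.963). Il33, an alarmin cytokine, had 10.2 and 14.2 FPKM for DKO, 1.11 and 1.94 for KH, 0.645, 1.45 and 1.73 for KO, and 0.57 and 0.569 for WT. For Krt84 they were Lce3f (r = 0.993), Spink12 (0.991), Prr9 (0.99), SNORA42 (0.989) and Gm9782 (0.989). Lce3f, a late cornified envelope gene, had 118 and 103 FPKM for DKO and between 1.19 and 3.52 in the other libraries. For Krt75 they were Lpo (r = 0.985), Cryab (0.981), Sema3g (0.981), Slc5a8 (0.98) and SNORA42 (0.979).

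**Figure D4:**
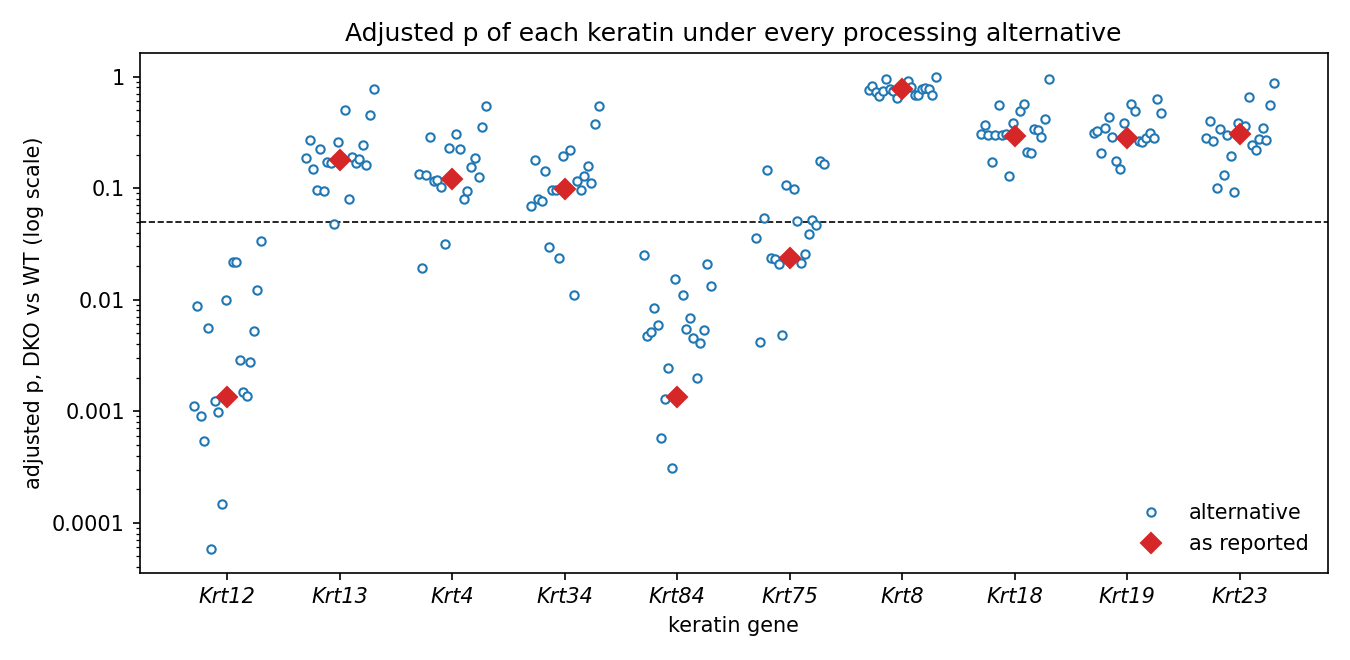
Adjusted p of the DKO and WT comparison (log scale) for the 10 keratins, as reported (diamonds) and under up to 20 processing alternatives (open points), with the 0.05 threshold dashed. Krt12 and Krt84 stay under the threshold throughout, the points of Krt75 lie on both sides, from 0.00416 to 0.174, and those of Krt8 stay at 0.639 or above.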

How the data were processed

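Epidermis was separated from E18.5 embryos, and 9 polyA-selected TruSeq stranded libraries were sequenced. The authors aligned reads to mm10 with TopHat 1.4.1 and computed FPKM per Ensembl release 72 gene with Cuffdiff 2.2.0; the deposited table holds FPKM per library and genotype averages, which were not used. Library scaling and strand use in counting are not given in the sources used here. Depth was read only as the relative value of 1 fragment.

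Log2(FPKM + 1) was fitted with limma 3.58.1 (R 4.3.3; trended eBayes, no replicate block) over all libraries, for genes averaging above 0.1 FPKM in at least 1 genotype, with p-values adjusted over all 16897. Calls needed an adjusted p under 0.05 and over 2-fold in average FPKM; limma replaced Cuffdiff, which needs reads. The script was tested on simulated data. Groups follow the labels. All 10 keratins are named, others by a call or the highest level within a fixed list, a neighbouring position or likeness; Slurp1, Krt36, Aldh3a1, Pax6, Hoxc13, Sox2 and Sprr3 were singled out after values were seen. The members and lists were chosen with earlier results of these data known. Alternatives covered pseudocount, filters, scaling, weights, fit and left-out libraries. Promoters are from RefSeq. Values of p rest on the spread within genotypes, pooled over all genotypes and drawn toward a trend over all tested genes.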

Additional observations from a re-analysis of the deposited data

How the results depend on the processing

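Krt12 and Krt84 were called between DKO and WT in all 20 alternatives, with log2 differences from 5.32 to 5.93 and 1.79 to 3.30 and adjusted p up to 0.0337 and 0.0251. Calls of the 10 keratins there ranged from 2 to 3 when 1 library was left out and reached 6 with array weights, and Krt4, Krt75 and Krt19 could not be fitted at a 1 FPKM filter. Between DKO and KO there were 5 calls after rescaling to TPM and 1 to 4 with 1 library left out, where all genes gave 152 and 62 to 130 calls. Between DKO and KH there was 1 call with only both genotypes fitted (33 over all genes), 1 to 2 with 1 library left out (43 to 102) and 3 with no filter (76), which were Krt4, Krt75 and Krt84 without Krt12. KO and KH against WT, and KH against KO, had 0 calls in every alternative. With 1 library left out, a lone library is assumed to vary like the other genotypes. Small uncalled differences changed sign when 1 library was left out, over these ranges: in DKO Krt8 -0.017 to 0.38; in KO Krt84 -0.21 to 0.036, Krt4 -0.041 to 0.011 and Krt8 -0.035 to 0.37; in KH Krt13 -0.84 to 0.30, Krt23 -1.62 to 0.069, Krt8 -0.16 to 0.33, Krt18 -0.0065 to 0.55, Krt4 -0.017 to 0.058 and Krt34 -0.10 to 0.70. Over all genes, the DKO and WT calls numbered 123 (81 higher), and 54 to 152 with 1 library left out, 178 by TPM (96 higher), 400 with both genotypes alone (141 higher), 556 with array weights (250 higher). The causes were not tested.

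The replicate numbers come from the titles, which name no shared litter or day, and KO, KH and DKO embryos came from separate crossing schemes; deviations of same-numbered libraries correlated from -0.567 to 0.468, so they do not pair the samples. With the replicate block there were 67 calls over all genes and 2 of the 10 keratins between DKO and WT, 2 between DKO and KO, and 1 between DKO and KH; Krt75 was not called (adjusted p = 0.107).

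Depth limits Krt4 and Krt75 most, with 1 to 4 fragments per WT library. The labels give no batch.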
